A study of Mus musculus with 9 samples.

Results

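The mitochondrial ribosomal proteins are the nuclear-encoded protein components of the mitoribosome, and their genes carry the symbols Mrpl (large subunit) and Mrps (small subunit). Members were taken by name alone, as every gene whose symbol in the array annotation begins with Mrpl or Mrps followed by a digit and which has a probe set of its own. Of 78 such symbols, 74 were measured this way, 46 of the large and 28 of the small subunit, among 18820 genes in all. The other 4 genes, Mrpl24, Mrpl43, Mrpl53 and Mrps6, were covered only by probe sets that they share with a neighbouring gene and were left out of the counts.

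Right ventricular RNA of 9 female C57BL/6 mice was measured on 9 expression arrays (Affymetrix mouse gene 1.1 ST), 1 for each mouse, in 3 groups of 3 mice. MCT + NI mice (numbers 615, 617 and 619) received monocrotaline (MCT), a plant alkaloid that damages the pulmonary vessels, at 600 mg/kg. It was given by weekly subcutaneous injection over 8 weeks, starting at 10 weeks of age according to the labels. The methods give an age of 8 weeks without naming the time point. The MCT + NI mice ate an isocaloric semi-synthetic diet enriched with fish oil, oligosaccharides, leucine and other protein. MCT mice (640, 641 and 644) received the same injections and the standard semi-synthetic diet AIN-93M. Sham mice (620, 624 and 625) received saline in matched volume and AIN-93M. All 3 groups received their diets already before the first injection, for a time on which the labels and the methods differ. No group combined saline with the intervention diet, so the effect of the diet without MCT was not measured. The methods describe the mice chosen for the arrays as matched for disease severity, which limits how far they stand for their groups.

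Mitochondria keep ribosomes of their own, which translate the few proteins encoded in mitochondrial DNA, all of them subunits of the respiratory chain or of ATP synthase. The mitoribosome pairs a small subunit, which holds and decodes the messenger RNA, with a large subunit, which forms the peptide bonds and passes the new protein into the inner membrane. The heart depends heavily on oxidative phosphorylation, and inherited defects of several mitoribosomal proteins cause cardiomyopathy in humans.

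Because the members are encoded at separate sites in the genome and their values are compared as a group here, the sequence before their start sites was examined. All 74 had a position in RefSeq (assembly GRCm38.p6), and they lay on 17 chromosomes. RefSeq promoter windows, running from 250 bases before to 50 bases after a start site, were given for 65 members. The windows were searched on both strands for 4 short motifs, the NRF1 core GCGCATGCG, the NRF1 short motif TGCGCA, the ETS core CCGGAAG and the YY1 core AAGATGGCG. NRF1 (nuclear respiratory factor), the ETS-family factor GABP and YY1 are transcription factors known for binding upstream of nuclear genes of mitochondrial proteins. The short motif can overlap the NRF1 core where TGCGCATGCG occurs. Printed here are the 120 bases before the start of 3 members that are described further on, with motif matches in capitals, each read 5′ to 3′ on the gene's own strand. Mrps18a was the member with the largest positive difference between MCT and sham mice (chr17:46110884-46111003, plus strand), Mrpl17 had the smallest adjusted p between MCT + NI and sham mice (chr7:105811088-105811207, minus strand) and Mrpl23 was lower in every MCT mouse than in every sham mouse (chr7:142532912-142533031, plus strand).
Mrps18a: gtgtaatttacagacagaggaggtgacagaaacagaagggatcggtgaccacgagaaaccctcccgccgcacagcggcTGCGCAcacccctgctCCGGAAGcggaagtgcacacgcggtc
Mrpl17: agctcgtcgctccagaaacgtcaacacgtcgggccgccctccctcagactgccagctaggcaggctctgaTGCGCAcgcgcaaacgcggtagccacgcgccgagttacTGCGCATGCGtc
Mrpl23: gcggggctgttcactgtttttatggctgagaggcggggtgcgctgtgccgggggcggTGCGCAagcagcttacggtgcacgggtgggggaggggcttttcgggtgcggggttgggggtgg

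At least 1 of the 4 motifs was found in 41 of the 65 members with a window (63.1%), against 23.7% of 17492 protein-coding genes and 18.6% of all 27025 genes with windows of the same length. The NRF1 core was present in 10.8% of members and 2.61% of protein-coding genes (1.95% of all genes), and the short motif in 30.8% and 11% (8.79%). The ETS core was present in 36.9% of members and 12.9% of protein-coding genes (9.93% of all genes), and the YY1 core in 12.3% and 2.14% (1.64%). These shares describe the letters of the windows and were not tied to the measured differences by any test. Mrps18a, Mrpl17 and Mrpl23, printed above, each held the NRF1 short motif. They are picked examples, and the values of members with and without a motif were not compared.

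A further shared feature was position. For 25 of the 65 members (38.5%) another gene started on the opposite strand within 1000 bases, against 13.2% of protein-coding genes and 12.3% of all genes. A pair in which both genes were members joined a gene of each subunit. Mrps11, a component of the small-subunit platform, and Mrpl46, a large-subunit protein, are transcribed away from each other on chromosome 7, with 41 bases between their starts (chr7:78783090-78783130, printed on the plus strand, which is that of Mrps11).
Mrps11 and Mrpl46: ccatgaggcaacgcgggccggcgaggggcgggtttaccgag
Mrps11 differed by 0.10 ± 0.10 on the log2 scale in MCT + NI against MCT mice and by -0.02 ± 0.10 in MCT against sham mice (difference ± SE). Mrpl46 differed by 0.01 ± 0.08 and by -0.06 ± 0.08 in the same comparisons. Other members of such pairs included Mrps12, next to Sars2 (mitochondrial seryl-tRNA synthetase), Mrpl47, next to Ndufb5 (a complex I subunit), and Mrps27, next to Ptcd2. These are picked examples. Other members start next to genes in none of the mitochondrial lists used here, such as Tcp1 (Mrpl18), Psma2 (Mrpl32), Hira (Mrpl40) and Zfp189 (Mrpl50).

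**Figure D1:**
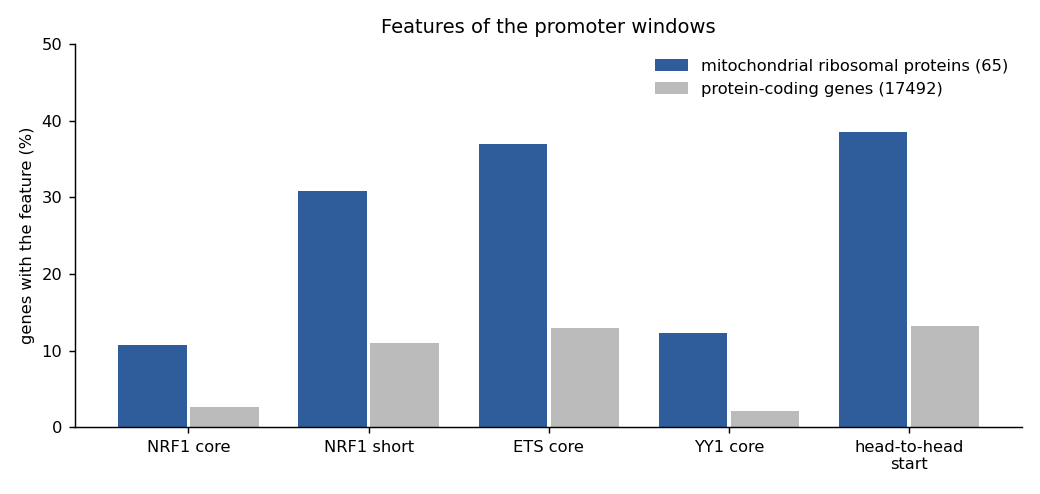
Share of genes (y axis, %) whose promoter window holds each motif or that have a head-to-head start within 1000 bases (x axis), for the 65 members with a window and for 17492 protein-coding genes. The members' bar is the higher one for every feature, from 10.8% against 2.61% for the NRF1 core to 38.5% against 13.2% for head-to-head starts.

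The arrays themselves were checked first. Array medians lay between 4.77 and 4.79 on the log2 scale, and the member means between 4.90 for Mrpl22 and 9.57 for Mrpl18, with every member at or above the median probe set (4.76). The ventricular cardiomyocyte markers were near level, with a mean log2 value over 9 markers of 12.49 to 12.5 in MCT + NI mice, 12.45 to 12.48 in MCT mice and 12.48 to 12.5 in sham mice. The 8 atrial markers were not. Myl7, the atrial myosin light chain, had log2 values of 9.79, 5.21 and 3.92 in MCT + NI mice 615, 617 and 619, 3.07, 3.66 and 11.40 in MCT mice 640, 641 and 644, and 10.55, 11.77 and 11.57 in sham mice 620, 624 and 625. MCT + NI mouse 615 and MCT mouse 644 therefore stood apart from the other mice of their groups in atrial transcripts. Results that rest on them are given with and without them. The groups differed too. Of the 8 atrial markers, 7 had a lower mean in MCT than in sham mice (median -2.385). The same number was lower in MCT + NI than in sham mice (median -3.192). In comparisons with sham mice, atrial content thus differed along with MCT and cannot be fully told apart from it. Because whole tissue was measured, fewer cells of a type and less RNA per cell cannot be told apart.

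In the first comparison, of MCT with sham mice, 62 of 74 members had a lower mean in MCT mice (83.8%), against 55.0% of all 18820 genes. The differences were small. The median was -0.056 on the log2 scale over all members, -0.05 over the large and -0.07 over the small subunit, and -0.016 over all genes, with single members running from -0.25 to 0.23. No member passed a Benjamini-Hochberg adjusted p under 0.05 in limma, where 6.26% of all genes did, and the smallest adjusted p was 0.0725. At an unadjusted p under 0.05, 7 members were lower and 1 was higher. That is 9.46% and 1.35% of the members, against 9.14% and 10.6% of all genes. Every member lay among the 10842 genes at or above the median probe set. Of these genes, 12.5% were lower and 16.1% higher at this threshold, and 51.4% had a lower mean in MCT mice. In 15 members every MCT mouse was below every sham mouse, and in 1 every MCT mouse was above (background over all genes 10.2% and 11.7%).

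Taken by mouse, the median of the 74 members relative to the mean of the sham mice was -0.036, 0.039 and 0.025 in MCT + NI mice 615, 617 and 619, -0.055, -0.053 and -0.065 in MCT mice 640, 641 and 644, and -0.011, 0.004 and 0.001 in sham mice 620, 624 and 625. The 3 MCT mice were close together and below all sham mice. MCT mouse 644, whose Myl7 lay within the range of the sham mice, had a member median of -0.065. The MCT mice with little Myl7 had -0.055 and -0.053. MCT + NI mouse 615, with the most Myl7 of its group, had the lowest member median of that group, -0.036 beside 0.039 and 0.025. The part of atrial transcripts in these medians was not tested. Members below their sham mean numbered 51, 26 and 30 in MCT + NI mice 615, 617 and 619, and 54, 57 and 60 in MCT mice 640, 641 and 644. Both subunits gave the same picture. For the large subunit the medians were -0.04, 0.025 and 0.023 in MCT + NI mice, -0.058, -0.053 and -0.05 in MCT mice and -0.021, 0.003 and 0.001 in sham mice. For the small subunit they were -0.025, 0.049 and 0.035 in MCT + NI mice, -0.046, -0.049 and -0.072 in MCT mice and 0.004, 0.006 and 0.001 in sham mice.

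**Figure D2:**
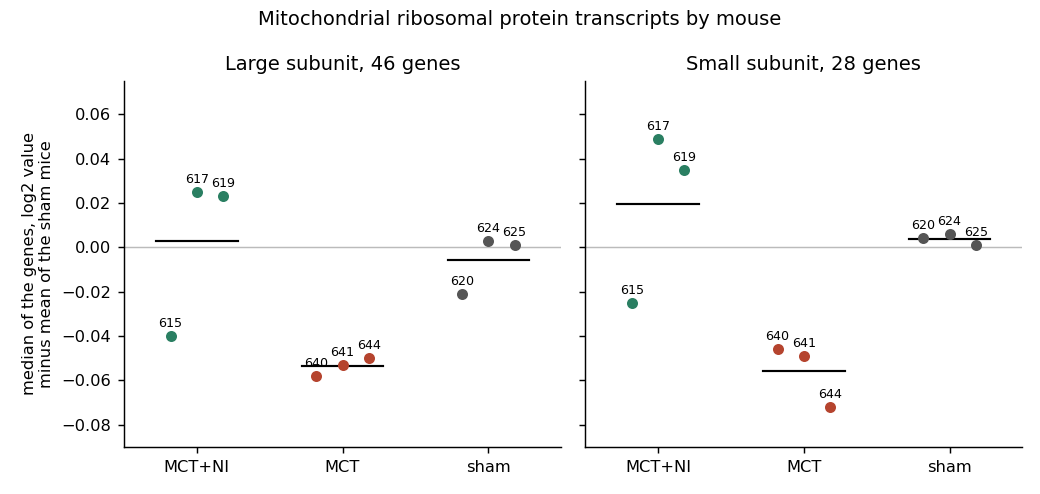
Median over the large-subunit genes (left) and the small-subunit genes (right) of each mouse's log2 value minus the mean of the sham mice (y axis), by group (x axis). Points are mice with their numbers and lines are group means; the MCT mice lie between -0.072 and -0.046, and MCT + NI mouse 615 lies below the other mice of its group in both panels.

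Among the small-subunit members, the lowest adjusted p belonged to Mrps28, whose loss of function impairs the small subunit in human disease. Its log2 values were 8.11, 8.12 and 8.12 in MCT + NI mice, 7.99, 8.03 and 8.12 in MCT mice and 8.15, 8.25 and 8.30 in sham mice. Every MCT mouse was below every sham mouse, with a difference of -0.18 ± 0.051 (0.88-fold; adjusted p = 0.0725, limma). Mrps35, a mitochondria-specific component, had 7.58, 7.80 and 7.76 in MCT + NI mice, 7.54, 7.61 and 7.70 in MCT mice and 7.77, 7.84 and 7.78 in sham mice. Again the MCT and sham mice did not overlap, and the difference was -0.18 ± 0.067 (adjusted p = 0.172, limma). Mrps25, a protein for which a human mutation with mitochondrial encephalomyopathy is known, had 6.36, 6.54 and 6.36 in MCT + NI mice, 6.34, 6.21 and 6.43 in MCT mice and 6.43, 6.59 and 6.60 in sham mice. The lowest sham mouse met the highest MCT mouse, and the difference was -0.21 ± 0.082 (adjusted p = 0.189, limma). Mrps33, also without a bacterial counterpart, had 8.53, 8.56 and 8.53 in MCT + NI mice, 8.5, 8.41 and 8.52 in MCT mice and 8.61, 8.56 and 8.59 in sham mice. The groups did not overlap (-0.11 ± 0.039, adjusted p = 0.149, limma), and the second probe set of Mrps33 differed by -0.118 between MCT and sham mice.

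Mrps18a was the only member with an unadjusted p under 0.05 and a higher level in MCT mice. Despite its name, the protein is placed in the large subunit in structures of the mammalian mitoribosome. Its log2 values were 7.90, 7.98 and 7.90 in MCT + NI mice, 8.19, 7.88 and 7.88 in MCT mice and 7.79, 7.72 and 7.73 in sham mice. All MCT mice and all MCT + NI mice were above all sham mice, and MCT mouse 640 was far above the rest. The difference was 0.23 ± 0.081 between MCT and sham mice (1.17-fold; adjusted p = 0.150, limma) and 0.18 ± 0.081 between MCT + NI and sham mice (adjusted p = 0.275). Between MCT and sham mice the difference was 0.13 without MCT mouse 640 and 0.14 with a score of atrial markers as covariate. With that covariate, with arrays centred on their gene median, or without sham mouse 624 or 625, its unadjusted p was no longer under 0.05. Mrps30, the other member with a small-subunit name that is placed in the large subunit, had 6.74, 6.74 and 6.72 in MCT + NI mice, 6.74, 6.63 and 6.69 in MCT mice and 6.74, 6.77 and 6.77 in sham mice, with a difference of -0.07 ± 0.047 between MCT and sham mice.

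Among the large-subunit members, Mrpl48 showed the largest difference between MCT and sham mice. Its log2 values were 7.96, 8.05 and 7.95 in MCT + NI mice, 7.78, 7.89 and 7.93 in MCT mice and 7.96, 8.16 and 8.25 in sham mice. MCT and sham mice did not overlap, and the difference was -0.25 ± 0.076 (0.839-fold; adjusted p = 0.0951, limma). RefSeq lists 1 pseudogene of Mrpl48, which the probe set may read instead of the gene or beside it, and the other probe set of Mrpl48, shared with Rab6a, differed by -0.18 ± 0.155. Without sham mouse 620, the lowest sham mouse in both genes, Mrpl48 had an adjusted p of 0.0241 and Mrps28 of 0.0417 (limma). Leaving out the lowest sham mouse widens the difference by construction. With any other single mouse left out, the adjusted p was 0.111 to 0.278 for Mrpl48 and 0.0563 to 0.226 for Mrps28 (limma). Mrpl23, a protein at the polypeptide exit, had 8.04, 8.17 and 8.21 in MCT + NI mice, 8.12, 8.11 and 8.12 in MCT mice and 8.22, 8.23 and 8.22 in sham mice. The MCT mice were tightly grouped below the sham mice (-0.11 ± 0.048, adjusted p = 0.248, limma), and MCT + NI mice 617 and 619 lay between them. RefSeq lists 1 pseudogene of Mrpl23 too, and its second probe set differed by -0.124.

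The stalk of the large subunit, which recruits the translation factors, is represented by Mrpl10, Mrpl11 and Mrpl12. Mrpl12, the stalk protein that also binds the mitochondrial RNA polymerase, had log2 values of 8.82, 8.83 and 8.89 in MCT + NI mice, 8.66, 8.82 and 8.74 in MCT mice and 8.93, 8.81 and 8.85 in sham mice. The groups overlapped through MCT mouse 641, with a difference of -0.13 ± 0.052 between MCT and sham mice (adjusted p = 0.218, limma) and -0.112 in a second probe set. Mrpl11, which anchors the stalk base, had 7.08, 7.08 and 7.23 in MCT + NI mice, 7.0, 6.85 and 7.07 in MCT mice and 7.08, 7.22 and 7.08 in sham mice. The MCT mice were below all other mice, by -0.15 ± 0.074 against sham mice (adjusted p = 0.310, limma). Mrpl10, the stalk's scaffold, overlapped fully, at 8.19 to 8.33 in MCT + NI mice, 8.21 to 8.27 in MCT mice and 8.25 to 8.35 in sham mice. All 3 stalk members had a lower mean in MCT mice, with a median of -0.128.

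Other role groups were read in the same way, beside 55.0% of all genes with a lower mean in MCT mice, a median of -0.016 over all genes and 9.14% of them lower at an unadjusted p under 0.05. Of the 5 members at the core of the large subunit near its catalytic centre (Mrpl2, Mrpl3, Mrpl4, Mrpl16 and Mrpl27), 4 had a lower mean in MCT mice (median -0.078) and none had an unadjusted p under 0.05. Mrpl2 differed by -0.11 ± 0.057 and Mrpl16 by -0.08 ± 0.063, whereas Mrpl27 differed by 0.07 ± 0.068, with a listed pseudogene and a second probe set at 0.144. Of 6 measured members at the exit and membrane side, 5 had a lower mean (median -0.054). All 7 members of the decoding centre, head and platform of the small subunit had a lower mean in MCT mice (median -0.076, none with an unadjusted p under 0.05), as did all 10 members of a list of largely mitochondria-specific small-subunit proteins (median -0.106, 4 with an unadjusted p under 0.05). These lists were drawn up with earlier results of these data known.

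A list of 4 members known from human disease held neither Mrps28 nor Mrps25, and 3 of its 4 had a lower mean in MCT mice (median -0.042). Mrpl3 and Mrpl44, both known from infantile hypertrophic cardiomyopathy in humans, differed by -0.05 ± 0.046 and -0.04 ± 0.076 between MCT and sham mice. Mrps22, known from a combined respiratory chain deficiency in humans, had 6.87, 7.24 and 6.99 in MCT + NI mice, 6.97, 6.64 and 6.91 in MCT mice and 6.95, 7.03 and 6.99 in sham mice. Its difference of -0.15 ± 0.110 rested mainly on MCT mouse 641. Mrps16, with a similar human disease, differed by 0.08 ± 0.147, and its standard error was the highest among the members.

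The second comparison, of MCT + NI with MCT mice, addressed the effect of the diet under MCT. The paper's supplement reports a lower cumulative food intake in MCT + NI mice than in MCT and sham mice. The composition of the diet and the amount eaten therefore cannot be told apart here. In it 64 of 74 members had a higher mean in MCT + NI mice (86.5%), against 47.5% of all genes, with a median of 0.071 over the members (0.066 for the large and 0.091 for the small subunit) and -0.005 over all genes. No member passed an adjusted p under 0.05 in limma, and neither did any gene of the 18820 (0%), the adjusted p being 1 for every member. At an unadjusted p under 0.05, 7 members were higher and 0 were lower. That is 9.46% and 0% of the members, against 1.59% and 1.3% of all genes. Among the 10842 genes at or above the median probe set the shares were 1.69% and 1.25%. In 12 members every MCT + NI mouse was above every MCT mouse and in 0 below, with a background of 3.11% and 2.96%. The comparison shares its 3 MCT arrays with that of MCT and sham mice, so chance deviations of these arrays enter both with opposite sign, and the values of each are given side by side only.

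**Figure D3:**
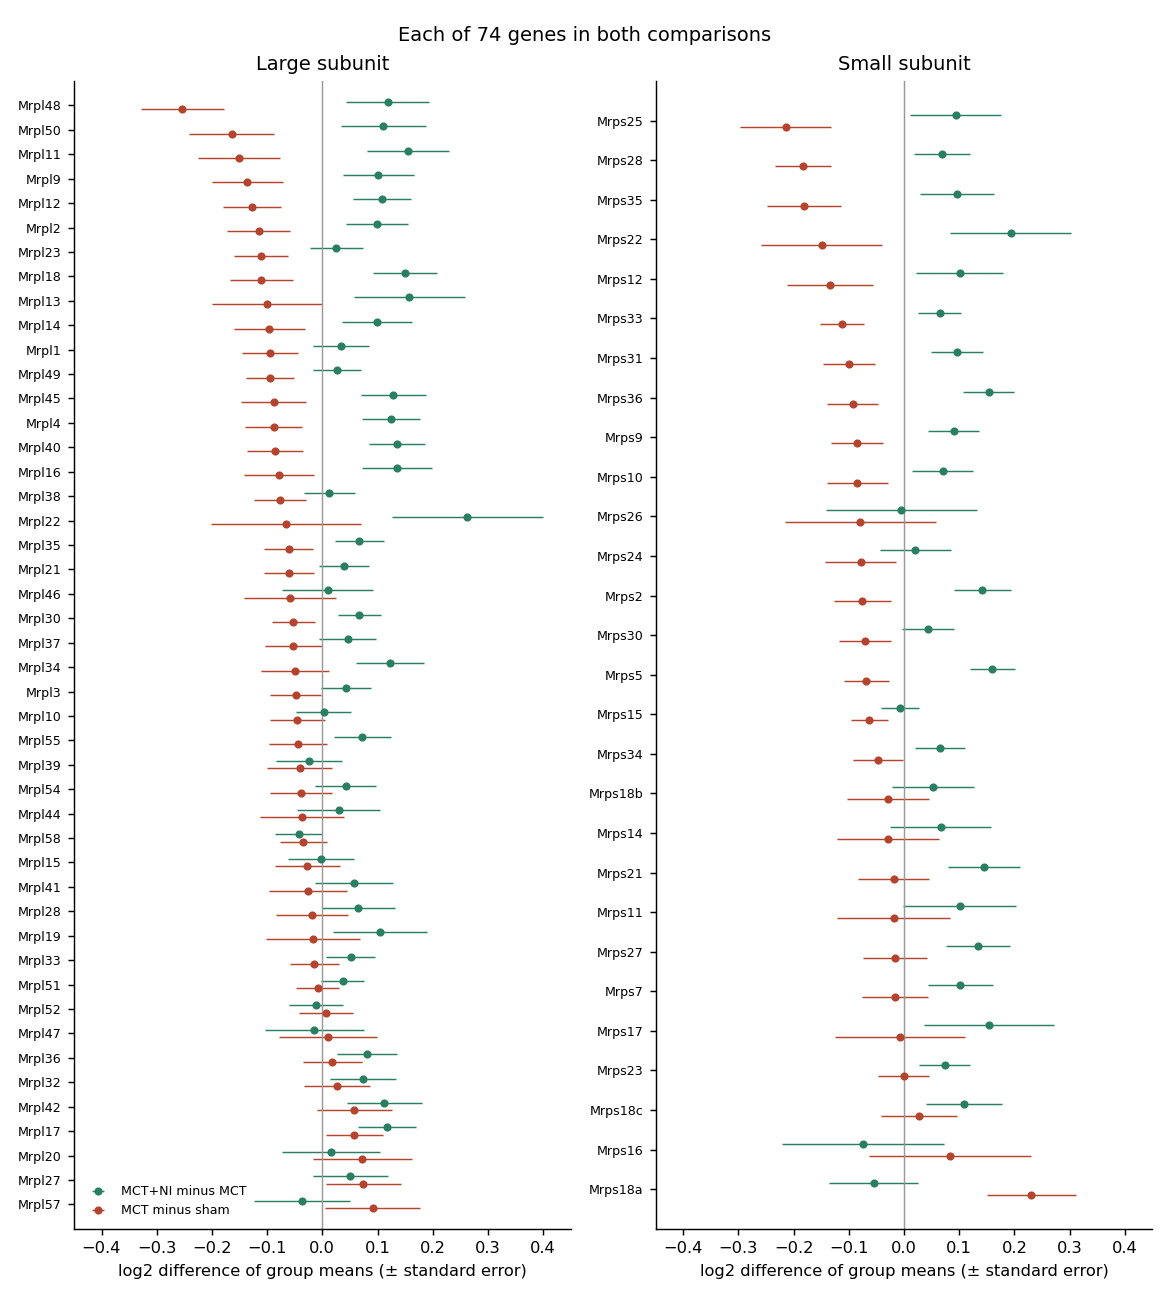
Differences of group means (x axis, log2 scale, with standard errors as bars) for each of 74 genes (rows), with the large subunit on the left and the small subunit on the right; green points are MCT + NI minus MCT and red points MCT minus sham. Both comparisons use the same MCT arrays. Red points lie mostly below 0 (62 of 74) and green points mostly above (64 of 74), and Mrps18a is the red point at 0.23.

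Of the small subunit, Mrps5, which lines the channel where messenger RNA enters, had log2 values of 7.65, 7.72 and 7.70 in MCT + NI mice, 7.55, 7.54 and 7.5 in MCT mice and 7.56, 7.61 and 7.62 in sham mice. The 3 groups were fully separated, with MCT + NI mice highest and MCT mice lowest. The difference was 0.16 ± 0.041 against MCT mice (1.12-fold), MCT mice differed from sham mice by -0.07 ± 0.041, and the second probe set gave 0.119 and -0.115. Mrps36 had 7.25, 7.35 and 7.25 in MCT + NI mice, 7.15, 7.09 and 7.15 in MCT mice and 7.21, 7.21 and 7.24 in sham mice. It was separated in the same order, MCT + NI mice differing from MCT mice by 0.15 ± 0.047. The protein was named as a ribosomal component but has since been assigned to the 2-oxoglutarate dehydrogenase complex of the citric acid cycle. RefSeq lists 3 pseudogenes of Mrps36, and the other probe set, shared with Sgk3, differed by 0.10 ± 0.0445.

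Mrps2, a conserved small-subunit protein, had 7.10, 7.08 and 7.10 in MCT + NI mice, 7.04, 6.96 and 6.87 in MCT mice and 7.04, 7.03 and 7.01 in sham mice. The MCT + NI mice lay above all other mice (0.14 ± 0.052 against MCT mice), and the MCT mice spread across and below the sham mice. Mrps27, a mitochondria-specific protein with pentatricopeptide repeats, had 6.85, 7.06 and 6.96 in MCT + NI mice, 6.81, 6.81 and 6.85 in MCT mice and 6.83, 6.83 and 6.85 in sham mice. Only MCT + NI mice 617 and 619 stood above the other 7 mice (0.13 ± 0.058 against MCT mice), and without mouse 617 the difference was 0.08.

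Of the large subunit, Mrpl18, a protein of the 5S rRNA-binding family and the brightest member, had 9.56, 9.75 and 9.60 in MCT + NI mice, 9.47, 9.48 and 9.51 in MCT mice and 9.53, 9.69 and 9.56 in sham mice. The MCT mice lay below all others. MCT + NI minus MCT was 0.15 ± 0.057 and MCT minus sham was -0.11 ± 0.057, and a second probe set gave 0.116 and -0.12. Without MCT + NI mouse 617, the difference of Mrpl18 from MCT mice was 0.09. Mrpl40 had 7.64, 7.74 and 7.73 in MCT + NI mice, 7.64, 7.51 and 7.55 in MCT mice and 7.63, 7.64 and 7.69 in sham mice. Here MCT mouse 640 met MCT + NI mouse 615, with a difference of 0.14 ± 0.051. Mrpl4, which lines part of the exit tunnel, had 8.10, 8.13 and 8.19 in MCT + NI mice, 7.99, 8.02 and 8.03 in MCT mice and 8.02, 8.10 and 8.19 in sham mice. The MCT + NI mice were above all MCT mice (0.12 ± 0.052) and within the range of the sham mice.

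Mrpl22, an exit-tunnel protein and the dimmest member, had the largest difference between MCT + NI and MCT mice, 0.26 ± 0.136, with wide spread. Its values were 4.77, 5.25 and 5.13 in MCT + NI mice, 4.68, 4.68 and 5.0 in MCT mice and 4.77, 4.89 and 4.89 in sham mice, so that the groups overlapped. The dimmest and brightest small-subunit members were Mrps11 (mean log2 value 5.88) and Mrps21 (9.29), and Mrps21 differed by 0.15 ± 0.065 in MCT + NI against MCT mice and by -0.02 ± 0.065 in MCT against sham mice.

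Member values within the MCT + NI group were not even. Mouse 615 was the lowest of its group in 50 of 74 members, mouse 617 in 9 and mouse 619 in 11, whereas among MCT mice the lowest was 640 in 24, 641 in 24 and 644 in 25 members. Without mouse 615, 16 members reached an unadjusted p under 0.05 in this comparison, all higher, against 3.71% of all genes in either direction in that fit, and the medians were 0.091 for the large and 0.122 for the small subunit. Without mouse 617 or without mouse 619 this number was 3 in each case (all genes 3.48% and 2.83%). Without both mouse 615 and MCT mouse 644, the 2 mice that stood apart in Myl7, it was 13 (all genes 3.42%). Mouse 615 also had the highest mean level of the 8 fibroblast markers in its group (8.84, beside 8.46 and 8.58), and the part of these transcripts in its lower member values was not tested.

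**Figure D4:**
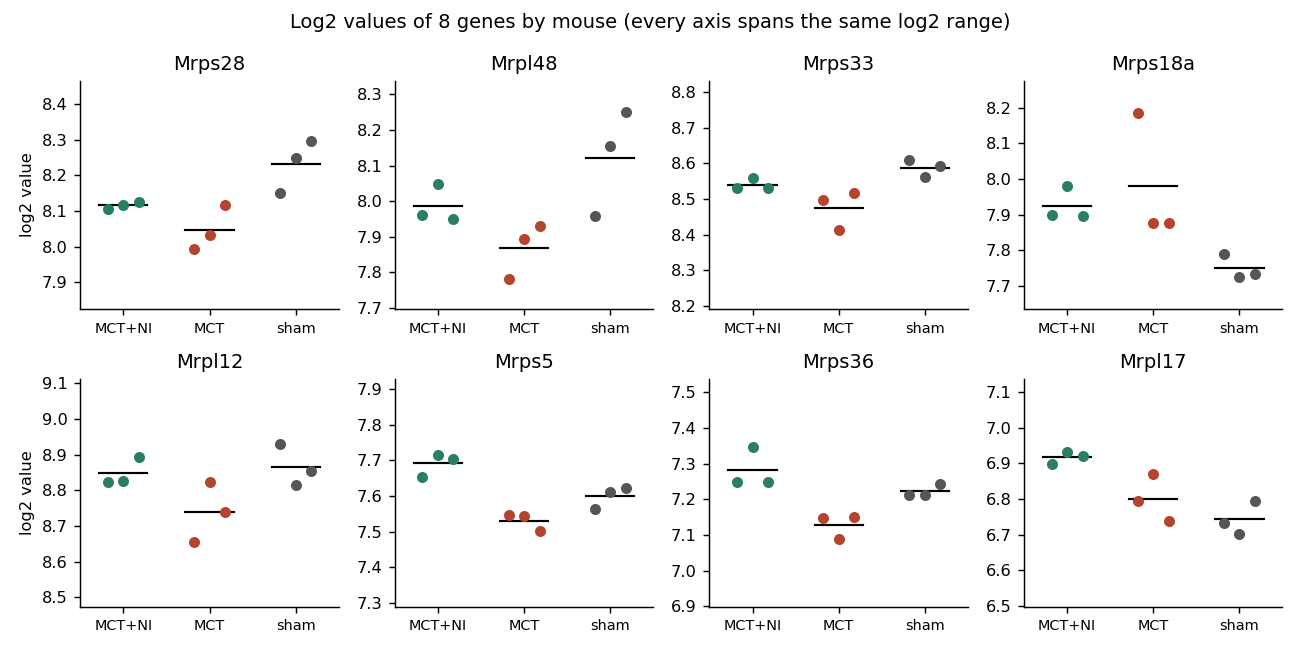
Log2 value of each mouse (points) and group mean (line) for 8 members, with groups in the order MCT + NI, MCT and sham on the x axis and every y axis spanning the same log2 range. In Mrps28, Mrpl48 and Mrps33 the MCT mice lie below all sham mice, in Mrps18a above them, and in Mrps5 and Mrps36 the MCT + NI mice lie above all others.

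In the third comparison, of MCT + NI with sham mice, 43 of 74 members had a higher and 31 a lower mean in MCT + NI mice, with a median of 0.012 (0.005 for the large and 0.021 for the small subunit) and -0.017 over all genes. The sign of both subunit medians turned under some other settings, so no direction is given for them. The MCT + NI and sham arrays of this comparison also enter the other 2. No member passed an adjusted p under 0.05 in limma (all genes 6.26%), the smallest being 0.0926. At an unadjusted p under 0.05, 2 members were higher and 1 was lower. That is 2.7% and 1.35% of the members, against 10.2% and 9.37% of all genes. Among the 10842 genes at or above the median probe set the shares were 15.3% and 12.4%. In 7 members every MCT + NI mouse was above and in 6 below every sham mouse (background 10.7% and 10.3%). Without MCT + NI mouse 615, 10 members had an unadjusted p under 0.05, all higher, where 16.5% of all genes did in either direction.

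Mrpl17, an exit-side protein of the large subunit whose promoter is printed above, had 6.90, 6.93 and 6.92 in MCT + NI mice, 6.79, 6.87 and 6.74 in MCT mice and 6.73, 6.70 and 6.79 in sham mice. The MCT + NI mice were above all 6 other mice, and the difference from sham mice was 0.17 ± 0.052 (1.13-fold; adjusted p = 0.0926, limma). Mrpl42 had 9.0, 9.23 and 9.03 in MCT + NI mice, 9.05, 8.89 and 8.99 in MCT mice and 8.91, 8.87 and 8.97 in sham mice. The MCT + NI mice were above all sham mice but overlapped with MCT mice (0.17 ± 0.068 against sham mice, adjusted p = 0.211, limma), and the difference was 0.10 without MCT + NI mouse 617. A second, dimmer probe set of Mrpl42 did not share this pattern, at -0.012 for MCT + NI minus MCT and -0.098 for MCT minus sham, and with the mean of both probe sets the difference between MCT + NI and sham mice was 0.03. Mrps28 was below all sham mice in all 3 MCT + NI mice, by -0.12 ± 0.051 (adjusted p = 0.254, limma), and by -0.08 without sham mouse 625.

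The members were set beside other genes of the same pathway. Of 14 translation factors of mitochondria, 12 had a lower mean in MCT than in sham mice (median -0.052), and 12 a higher mean in MCT + NI than in MCT mice (median 0.034). Of 18 assembly factors of the mitoribosome, 16 had a lower mean in MCT than in sham mice (median -0.076), and 9 of 18 a higher mean in MCT + NI than in MCT mice (median -0.001). The 19 mitochondrial aminoacyl-tRNA synthetases and related enzymes, which charge the tRNAs used by the mitoribosome, included 18 with a lower mean in MCT than in sham mice (median -0.071) and 12 with a higher mean in MCT + NI than in MCT mice (median 0.018). No gene of these 3 lists passed an adjusted p under 0.05 in limma in any comparison. The numbers with an unadjusted p under 0.05 between MCT and sham mice were 3, 1 and 4, all lower, which is 21.4%, 5.56% and 21.1% of these lists against 9.14% of all genes. By mouse, the synthetase median relative to sham mice was -0.089, -0.051 and -0.044 in MCT + NI mice, -0.058, -0.044 and -0.087 in MCT mice and 0.006, 0.002 and -0.01 in sham mice, so that the MCT + NI mice overlapped the MCT mice and lay below the sham mice.

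The protein products of mitochondrial translation join nuclear-encoded subunits in the respiratory chain. Of 81 such nuclear genes for the respiratory chain and ATP synthase, 72 had a lower mean in MCT than in sham mice (median -0.066, 25 lower and 2 higher with an unadjusted p under 0.05), and 76 a higher mean in MCT + NI than in MCT mice (median 0.063, 18 higher with an unadjusted p under 0.05). Of all genes, 9.14% were lower and 10.6% higher at this threshold in MCT against sham mice, and 1.59% higher in MCT + NI against MCT mice. At an adjusted p under 0.05, which 6.26% of all genes passed, 2 of the 81 fell and 2 rose in MCT against sham mice. Ndufa4, a subunit of cytochrome c oxidase, fell by 0.15 on the log2 scale (adjusted p = 0.0162, limma), and Ndufv2, a core subunit of complex I, fell by 0.15 (adjusted p = 0.0485). Ndufa4l2 rose by 0.69 (adjusted p = 0.00428) and Cox4i2 by 0.65 (adjusted p = 0.00758), both isoforms known to be induced by low oxygen.

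Cytosolic ribosomal proteins, which build the ribosomes outside mitochondria, ran differently. Of 76, 25 had a lower mean in MCT than in sham mice (median 0.02) and 27 a higher mean in MCT + NI than in MCT mice (median -0.018). Only Rps27l, a p53-responsive relative of Rps27, passed the adjusted p between MCT and sham mice, with a difference of 0.49 ± 0.107 (adjusted p = 0.0285, limma). The difference between the cytosolic and mitochondrial lists was not tested.

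**Figure D5:**
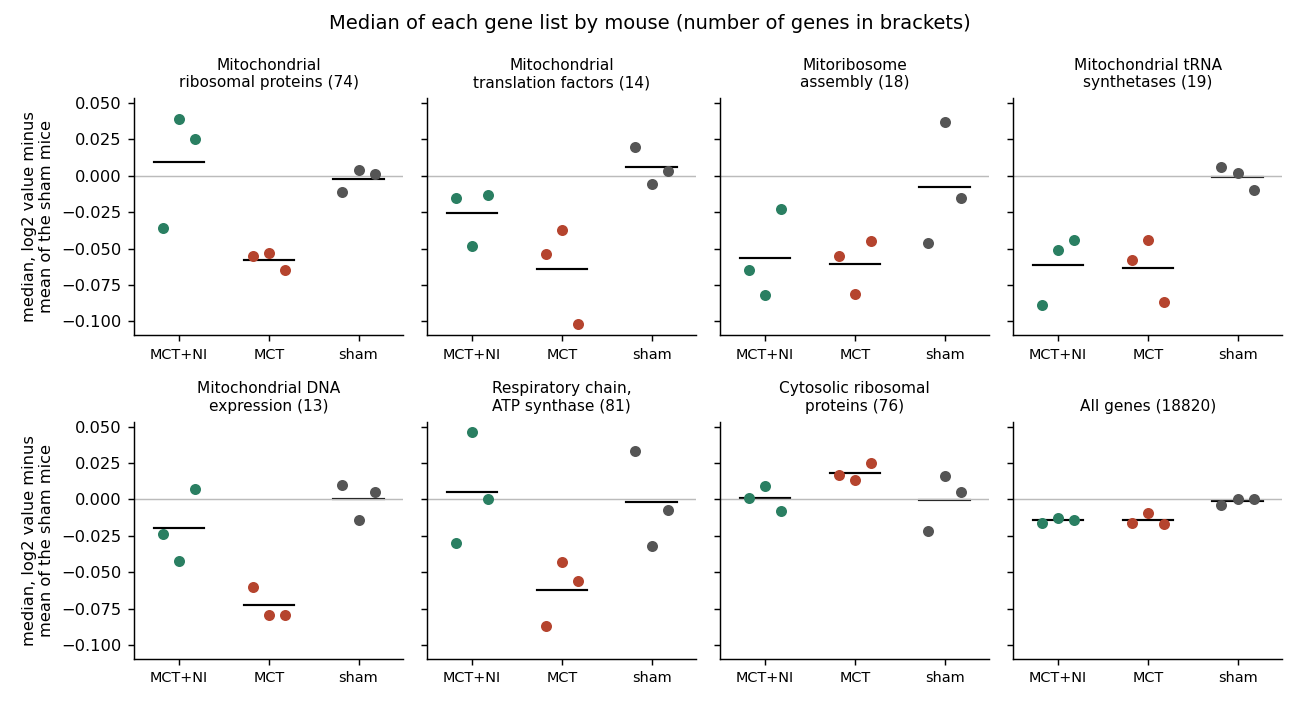
Median of each gene list (panels, number of genes in brackets) in each mouse, as log2 value minus the mean of the sham mice (y axis), by group (x axis), with points for mice and lines for group means. MCT mice lie below all sham mice for the mitochondrial ribosomal proteins (-0.065 to -0.053) and the respiratory chain list (-0.087 to -0.043), and the cytosolic ribosomal proteins lie between 0.013 and 0.025 in MCT mice.

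Regulators of these genes moved in both directions. Between MCT and sham mice, Esrrg, an estrogen-related receptor that activates mitochondrial genes in heart muscle, fell by 0.37 (adjusted p = 0.0452, limma), and Pprc1, a coactivator of the PGC-1 family, rose by 0.31 (adjusted p = 0.0246). The coactivator Ppargc1a had log2 values of 9.88, 10.09 and 10.09 in MCT + NI mice, 10.02, 9.83 and 10.05 in MCT mice and 10.26, 10.28 and 10.21 in sham mice. All sham mice were above all mice given MCT, and its difference between MCT and sham mice was -0.28 ± 0.0716 (adjusted p = 0.0564, limma). Tfam, which packages and transcribes mitochondrial DNA, differed by -0.01 ± 0.0456. Between MCT + NI and sham mice, Esrrg fell by 0.42 (adjusted p = 0.0254) and Gabpb1, a subunit of the ETS-family factor GABP, rose by 0.28 (adjusted p = 0.0248).

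Markers of other cell types differed between the same groups. The mean log2 level of 8 fibroblast markers was 8.46 to 8.84 in MCT + NI mice, 8.72 to 8.75 in MCT mice and 8.12 to 8.4 in sham mice. The 8 endothelial markers were at 8.87 to 9.08 in MCT + NI mice, 8.92 to 9.02 in MCT mice and 8.61 to 8.78 in sham mice, and the 8 smooth muscle and pericyte markers at 8.36 to 8.45 in MCT + NI mice, 8.32 to 8.54 in MCT mice and 7.99 to 8.04 in sham mice. These 3 lists were higher in mice given MCT. A higher mean in MCT than in sham mice was seen in 6, 6 and 7 of their 8 genes. The cardiomyocyte list was near level in its mean, with 5 of its 9 genes lower and 4 higher in MCT than in sham mice. In 3 of the 9, every MCT mouse was below every sham mouse (10.2% of all genes). Only Ryr2 passed an adjusted p under 0.05 (lower, adjusted p = 0.0234, limma). Ryr2 had log2 values of 11.57, 11.56 and 11.53 in MCT + NI mice, 11.54, 11.45 and 11.56 in MCT mice and 11.65, 11.68 and 11.72 in sham mice. The 9 macrophage markers moved both ways between MCT and sham mice, 2 rising (Cd68 and C1qb) and 1 falling (Cd163) at an adjusted p under 0.05 in limma, with 6 higher and 2 lower at an unadjusted p under 0.05. Their mean log2 level overlapped between groups, at 6.9 to 7.15 in MCT + NI mice, 6.9 to 7.29 in MCT mice and 6.83 to 7.07 in sham mice. The median marker relative to the mean of the sham mice was 0.386, 0.111 and 0.5 in MCT + NI mice, 0.628, 0.208 and 0.53 in MCT mice and 0.057, -0.102 and 0.086 in sham mice, so that every mouse given MCT was above every sham mouse. Between MCT + NI and MCT mice, all 9 cardiomyocyte markers had a higher mean in MCT + NI mice (median 0.021). All 8 fibroblast markers had a lower mean (median -0.128), as did 7 of 9 macrophage markers (median -0.142). Of the 8 endothelial and 8 smooth muscle and pericyte markers, 3 and 5 had a lower mean, against 52.2% of all genes. No marker and no other gene passed an adjusted p under 0.05 there. Whether the share of RNA from such cells has a part in the lower member values of MCT mice, against sham or MCT + NI mice, was not tested.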

How the data were processed

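Total RNA of the right ventricle was labelled and hybridised by the authors to Affymetrix mouse gene 1.1 ST arrays. The authors processed the scans with RMA (robust multi-array average) and deposited log2 values, which were used as deposited. The table holds 35556 of the manufacturer's probe sets, whereas the methods name a remapped definition with 1 probe set per Entrez gene. The methods and the labels also name different kits for RNA isolation and labelling. Of the probe sets, 21218 were annotated to 1 gene, 1881 to several and 12457 to none in the annotation used. Each of 18820 genes was represented by its brightest probe set of that gene alone. Members with a RefSeq pseudogene (Mrpl23, Mrpl27, Mrpl48 and Mrps36) are uncertain, since a probe set may read the copy instead of the gene or beside it. Mrps10 is uncertain too, since its brightest probe set differed by -0.085 between MCT and sham mice and the other 2 by -0.189 and -0.206. Positions of the probe sets were not examined, so other members may be affected as well.

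A linear model with 1 mean per group over all 9 mice was fitted in limma 3.58.1 (R 4.3.3) with an intensity trend, as the methods describe. P-values are two-sided, and adjusted values follow Benjamini and Hochberg over 18820 genes, an adjustment the methods do not name. Errors beside differences are limma's standard errors. The number of arrays limits the precision. Exact ties are frequent in the table, and 41 of 74 members have 1 value in at least 2 mice.

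The members, role lists, tests and alternatives were chosen with earlier results of these data known. Members named are, per comparison, direction and subunit, the 3 with the largest difference among those with an unadjusted p under 0.05, the brightest and dimmest of each subunit, and the stalk, core and disease members with Mrps18a and Mrps30. Of other lists, up to 2 genes with the smallest p were named per comparison where an adjusted p was under 0.05, with Ppargc1a, Tfam and Myl7. The cell type markers did not follow this rule. Ryr2, Cd68, C1qb and Cd163 were named, whereas fibroblast, endothelial, smooth muscle and pericyte markers past that threshold were not. Mrps27, Mrps33, the paired genes at shared starts and the second 2 of the respiratory chain genes were named after their values had been seen. Sequences and positions are from RefSeq, assembly GRCm38.p6. The alternatives were another quantile normalization, a filter on dim genes, no trend, pairs of groups only, an average over all probe sets of a gene, all probe sets, array weights, an atrial score as covariate, mice left out, and, after the data had been seen, centring of arrays and leaving out members with a pseudogene.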

Additional observations from a re-analysis of the deposited data

How the results depend on the processing

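No paired analysis was possible because the mouse numbers are not shared between groups. For MCT against sham mice, members with an adjusted p under 0.05 numbered 0 as reported, 1 after quantile normalization and 1 with dim genes removed (Mrps28 in both), 2 with array weights (Mrps28 and Mrpl48) and 3 with arrays centred on their gene median (Mrps33 in addition). They numbered 0 to 2 with single mice left out, 2 being without sham mouse 620. The number with an unadjusted p under 0.05 was 5 with the atrial score as covariate, 32 with centred arrays and 5 to 9 with single mice left out. The large-subunit median was -0.075 with the atrial score and -0.115 with centred arrays, where the small-subunit median was -0.134, and with single mice left out they were -0.057 to -0.05 and -0.071 to -0.05. Centring on the gene median moved the median of all genes to -0.08, against -0.016 as reported. Members with a lower mean numbered 55 to 63 without single mice.

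Between MCT + NI and MCT mice, the number with an unadjusted p under 0.05 was 4 without the intensity trend, 13 without MCT mouse 644 and MCT + NI mouse 615, and 3 to 16 with single mice left out, 16 being without mouse 615 and 3 without 617 or 619, beside 2.9% of all genes as reported and 2.66% to 3.71% without single mice. The large-subunit median was 0.093 without both mice and 0.058 to 0.091 without single mice, and the small-subunit median 0.068 to 0.122. Members with a higher mean numbered 60 to 68 without single mice.

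Between MCT + NI and sham mice, the unadjusted number was 1 without the trend, 5 over all probe sets, 10 without mice 644 and 615, 6 with centred arrays (all lower) and 1 to 10 without single mice. Members with a higher mean numbered 23 with centred arrays. The large-subunit median was -0.002 after quantile normalization, -0.046 with centred arrays, 0.031 without both mice and -0.004 to 0.031 without single mice. The small-subunit median was -0.006 with the atrial score, -0.031 with centred arrays, 0.055 without both mice and -0.002 to 0.055 without single mice. The cause of these shifts was not tested. Centring of arrays and leaving out members with a pseudogene were chosen after the data had been seen, and the second kept every count and median of the members within the limits used here. With 3 mice per group, the standard error of a member's difference ranged from 0.034 to 0.147.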

Other observations

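The 4 mitochondrial ribosomal protein genes without a probe set of their own were read through probe sets shared with a neighbour. The probe set of Mrpl24 and Rrnad1 differed by 0.11 ± 0.0456 (SE) on the log2 scale in MCT + NI against MCT mice and by -0.13 ± 0.0456 in MCT against sham mice. That of Mrpl43 and Sema4g differed by 0.02 ± 0.042 and 0.03 ± 0.042, and that of Mrpl53 and Ccdc142 by 0 ± 0.0713 and -0.05 ± 0.0713. The probe set of Mrps6 and Slc5a3, a sodium-dependent inositol transporter, differed by -0.06 ± 0.166 and -0.50 ± 0.166 (adjusted p = 0.206 between MCT and sham mice, limma over all probe sets). These probe sets cannot tell their genes apart.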
